A study of Mus musculus with 9 samples.

Results

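The genes described here are 9 members of the NRF2 antioxidant pathway, taken by symbol from the 43154 genes listed for each of 9 mouse hearts. They are the transcription factor Nfe2l2 (which encodes NRF2), its repressor Keap1, and 7 enzyme genes that NRF2 is known to induce, namely Gclc, Gclm, Txnrd1, Srxn1, Nqo1, Cbr3 and Hmox1. Each symbol matched 1 row in every heart, and all 9 genes passed the filter on low values. The members were chosen by their known function, with no threshold on the values, but with earlier results of these data known.

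All hearts came from C57BL/6 mice and fell into 3 groups. Hearts of calcineurin transgenic mice given JIB-04 (2 hearts) carried a calcineurin A transgene behind the α-myosin heavy chain promoter, which is active in cardiomyocytes. JIB-04, a small molecule inhibitor of Jumonji histone demethylases, was given at 50 mg/kg, 3 times a week, starting at 4 weeks of age. Hearts of calcineurin transgenic mice given vehicle (3 hearts) carried the same transgene. Hearts of wild type mice given vehicle (4 hearts) carried none, and no wild type heart with JIB-04 was analysed here. Both vehicle groups were labelled with the same schedule, 3 doses a week from 4 weeks of age. JIB-04 heart 1, transgenic vehicle heart 1 and wild type hearts 1 and 2 were collected at postnatal day 125. JIB-04 heart 2, transgenic vehicle hearts 2 and 3 and wild type hearts 3 and 4 were collected at day 158. Where values of single hearts are given, they follow these heart numbers. The p-values measure the spread between these few hearts.

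NRF2 is held in the cytoplasm by KEAP1, which passes it to a CUL3 ubiquitin ligase for degradation. When oxidants or electrophiles modify cysteines of KEAP1, NRF2 escapes, pairs with a small MAF protein in the nucleus and binds the antioxidant response element in front of its target genes. The induced enzymes make glutathione, recycle thioredoxin and peroxiredoxins, reduce quinones and carbonyls and break down haem. NRF2 is regulated mainly as a protein, so the mRNA of Nfe2l2 need not follow its activity. In bulk heart tissue, fewer cells of a type and less RNA per cell cannot be told apart.

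The sequences in front of the transcription start were searched for 2 motifs on both strands, the core of the antioxidant response element (TGACNNNGC) and the AP-1 type element TGAGTCA. Both motifs are matched at once where the N letters of TGACNNNGC read TCA. Promoter sequences from RefSeq (GRCm38.p6) were found for 7 of the 9 genes, not for Gclc and Hmox1. In the 250 bases before the start, TGACNNNGC was present in 10.2% and TGAGTCA in 4.46% of all 32851 RefSeq windows. Below are the window of Srxn1, the gene with the largest difference between groups, of Nqo1, which also differed, and of Gclm and Txnrd1, which did not pass the test in any comparison. Letters in capitals mark matches of either motif.
Srxn1, plus strand, chr2:152105274-152105515: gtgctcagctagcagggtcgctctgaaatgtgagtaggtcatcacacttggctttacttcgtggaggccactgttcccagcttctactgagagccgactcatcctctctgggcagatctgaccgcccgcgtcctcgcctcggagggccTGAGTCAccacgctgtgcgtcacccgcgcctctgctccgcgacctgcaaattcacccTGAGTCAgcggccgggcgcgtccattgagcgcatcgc
Nqo1, minus strand, chr8:107403207-107403455: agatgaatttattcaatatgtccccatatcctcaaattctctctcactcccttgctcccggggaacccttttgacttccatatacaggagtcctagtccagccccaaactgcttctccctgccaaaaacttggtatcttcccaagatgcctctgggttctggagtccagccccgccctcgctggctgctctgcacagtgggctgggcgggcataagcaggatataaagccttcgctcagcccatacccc
Gclm, plus strand, chr3:122245307-122245556: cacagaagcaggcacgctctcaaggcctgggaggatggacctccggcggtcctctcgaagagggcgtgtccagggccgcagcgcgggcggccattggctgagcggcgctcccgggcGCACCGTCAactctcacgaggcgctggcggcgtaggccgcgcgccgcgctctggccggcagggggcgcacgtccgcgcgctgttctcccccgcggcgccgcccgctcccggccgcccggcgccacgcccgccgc
Txnrd1, plus strand, chr10:82858956-82859178: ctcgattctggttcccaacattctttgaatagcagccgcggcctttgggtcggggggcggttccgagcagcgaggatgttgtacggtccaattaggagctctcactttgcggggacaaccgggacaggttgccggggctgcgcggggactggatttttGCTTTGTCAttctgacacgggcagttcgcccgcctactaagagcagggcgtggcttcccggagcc
In Srxn1, TGAGTCA stood 102 and 45 bases before the start, and TGACNNNGC was not found. The match at 45 bases is followed by GC, so it differs from TGACNNNGC only by a G in place of the C. Wider forms of the antioxidant response element were not searched. In Gclm, TGACNNNGC was matched on the opposite strand (GCACCGTCA), 134 bases before the start. In Txnrd1, which has 3 starts in RefSeq, it was matched on the opposite strand (GCTTTGTCA) 92 bases before the start at which the locus in the files begins. Nfe2l2 had a match (TGACTCCGC) 240 bases before its start, while the windows of Nqo1, Keap1 and Cbr3 had no match of either motif. A match is a string of letters and not a measured binding site, and matches of genes that passed the test and genes that did not are given side by side without a reading.

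The unit of level is FPKM, sequenced fragments divided by transcript length and by the mapped fragments of the heart. Differences are on the log2(FPKM + 1) scale, on which low genes such as Cbr3 change by less than their FPKM do. Relative depth, read from the steps between low FPKM values, was at most 1.51 times that of wild type heart 1, which was the lowest, and total read counts were not given in the sources used here. Ppp3ca, the gene of the calcineurin A alpha subunit, was at 1536 and 1434 FPKM with JIB-04, at 1762, 1706 and 199 FPKM in transgenic vehicle hearts and at 22.9 to 24.8 FPKM in wild type hearts. Reads of the transgene and of the endogenous gene were not separated in these values. Transgenic vehicle heart 3 was thus the lowest of the transgenic hearts and still above every wild type heart. This heart and JIB-04 heart 2 also listed mt-Atp6, mt-Atp8 and mt-Co3 at high values, while the other 7 hearts listed these genes at 0. Results are therefore also given without these 2 hearts, an alternative chosen after the data were seen. Wild type heart 2 stood apart in another way, with mt-Co1 and mt-Co2 listed at 0, where the other 8 hearts had at least 14582 FPKM of each. The mitochondrial genome took 10.004% of the summed FPKM in that heart and 16.8% to 30.9% in the others. Without wild type heart 2, Srxn1, Nqo1 and Gclc still passed in transgenic vehicle against wild type (1.24, 0.75 and 0.61 log2).

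**Figure D1:**
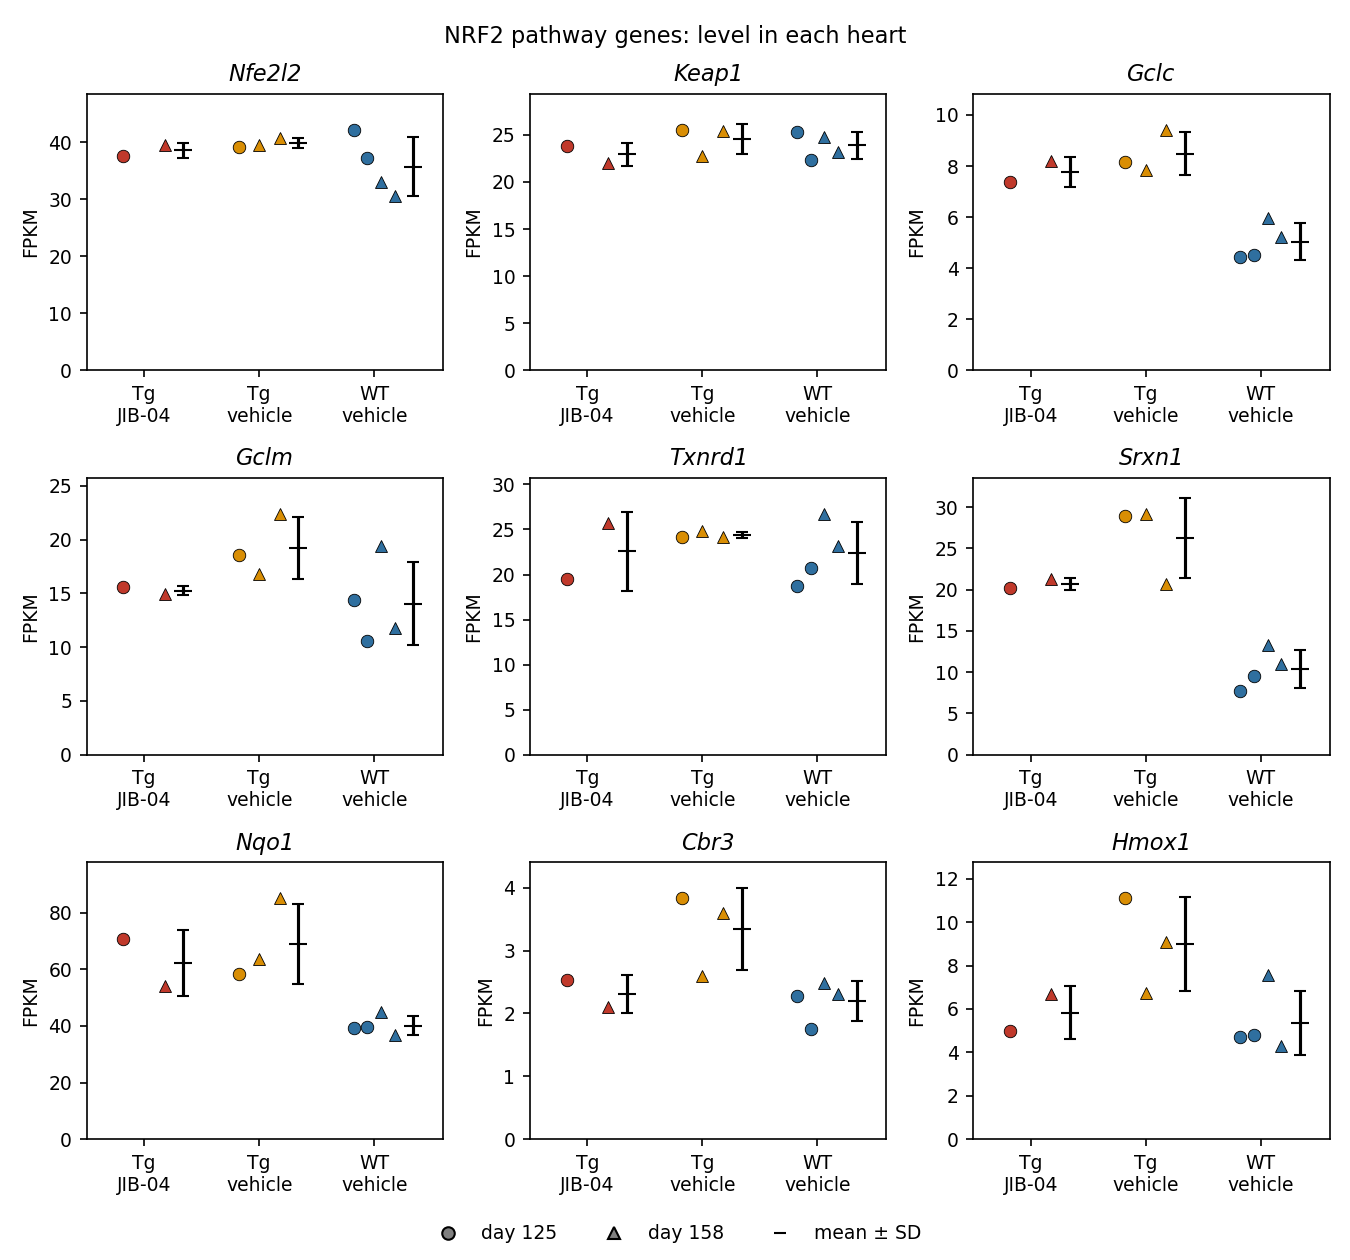
FPKM (y axis, from 0) of each of the 9 genes in every heart, for transgenic hearts with JIB-04, transgenic hearts with vehicle and wild type hearts with vehicle (x axis). Circles are day 125, triangles day 158, and bars give the mean ± SD of a group. For Srxn1, Nqo1 and Gclc every transgenic heart lies above every wild type heart. The share of all genes that separate in this way was not counted.

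The first comparison asked what the calcineurin transgene did to the pathway under vehicle. Srxn1, Nqo1, Hmox1, Gclc and Cbr3 were higher in transgenic vehicle hearts than in wild type hearts, and none of the 9 genes was lower. That is 5 of 9 in either direction, where 36.0% of all tested genes passed (20.3% higher and 15.7% lower). The median log2 fold change of the 9 genes was 0.44, and that of all 13487 tested genes was 0.05. Because the 9 genes were chosen with earlier results of these data known, this count and median only describe them. Factor and repressor, Nfe2l2 and Keap1, did not pass the test. The calls of Srxn1, Nqo1 and Gclc held with any single heart left out, while those of Cbr3 and Hmox1 were each lost with any of 7 of the 9 hearts left out.

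Nfe2l2 lies on chromosome 2 (GRCm38, 75675513 to 75704641, minus strand). It was at 37.6 and 39.5 FPKM in JIB-04 hearts, at 39.1, 39.5 and 40.8 FPKM in transgenic vehicle hearts and at 42.2, 37.2, 33.0 and 30.5 FPKM in wild type hearts. Wild type hearts held both the highest and the lowest value, the groups overlapped, and the 2 wild type hearts of day 158 were the lowest of all 9. Transgenic vehicle hearts differed from wild type by 0.18 ± 0.10 log2 (SE, 95% interval -0.05 to 0.41, limma adjusted p = 0.20). Scaling the hearts to equal summed FPKM raised this difference to 0.40 and past the threshold (adjusted p = 0.014).

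Keap1 lies on chromosome 9 (21229730 to 21239332, minus strand). Its level was 23.8 and 22.0 FPKM in JIB-04 hearts, 25.6, 22.8 and 25.4 FPKM in transgenic vehicle hearts and 25.3, 22.3, 24.8 and 23.1 FPKM in wild type hearts. All 9 values lay between 22.0 and 25.6 FPKM, and the groups overlapped. The transgene difference was 0.05 ± 0.08 log2 (95% interval -0.13 to 0.23, adjusted p = 0.67), and its sign turned with median of ratios and quantile scaling. Exons of Keap1 overlap the antisense gene Gm16754, and the libraries did not keep strand, so reads of the pair cannot be told apart. The ratio of Nfe2l2 to Keap1 FPKM was 1.58 and 1.79 in JIB-04 hearts, 1.53, 1.74 and 1.60 in transgenic vehicle hearts and 1.66, 1.67, 1.33 and 1.32 in wild type hearts. Those ratios overlapped too, the 2 lowest being the wild type hearts of day 158.

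Gclc and Gclm encode the catalytic and the modifier subunit of glutamate-cysteine ligase, which makes the first and rate-limiting bond of glutathione. The catalytic subunit rose and the modifier subunit did not pass the test. Gclc (chromosome 9, 77754535 to 77794485, plus strand) was at 7.36 and 8.19 FPKM in JIB-04 hearts, at 8.16, 7.85 and 9.43 FPKM in transgenic vehicle hearts and at 4.43, 4.50, 5.97 and 5.23 FPKM in wild type hearts. No transgenic heart of either treatment reached down to the highest wild type heart. For transgenic vehicle against wild type the difference was 0.63 ± 0.09 log2 (95% interval 0.42 to 0.84, adjusted p = 0.0015), from group means of 8.48 ± 0.83 FPKM (SD, n = 3) and 5.04 ± 0.72 FPKM (SD, n = 4).

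Gclm (chromosome 3, 122245557 to 122269984, plus strand), whose promoter window holds the TGACNNNGC match, was at 15.6 and 14.9 FPKM in JIB-04 hearts. It was at 18.6, 16.8 and 22.4 FPKM in transgenic vehicle hearts and at 14.4, 10.6, 19.4 and 11.8 FPKM in wild type hearts. Wild type heart 3 lay within the range of the transgenic vehicle hearts, while all other wild type hearts and both JIB-04 hearts lay below it. The transgene difference was 0.43 ± 0.19 log2 (95% interval -0.00017 to 0.86, adjusted p = 0.11). It passed the threshold without wild type heart 3 (0.62, adjusted p = 0.023) and with equal summed FPKM (0.64, adjusted p = 0.017). Exons of Gclm overlap Gm17494 on the opposite strand and the processed pseudogene Gm6061, so its counts are uncertain to that extent. The FPKM of Gclm over that of Gclc was 2.12 and 1.82 in JIB-04 hearts, 2.28, 2.14 and 2.38 in transgenic vehicle hearts and 3.25, 2.36, 3.24 and 2.25 in wild type hearts. The modifier subunit was therefore the higher of the pair in every heart, and the ratios of transgenic vehicle and wild type hearts overlapped. Both JIB-04 ratios lay below every other heart, but narrowly, with JIB-04 heart 1 at 2.12 and transgenic vehicle heart 2 at 2.14. The ratio was not tested, and such separation was not counted over other pairs of genes, so nothing is read from it.

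Txnrd1 is the cytosolic thioredoxin reductase, which feeds electrons from NADPH to thioredoxin, and Srxn1 is sulfiredoxin, which repairs peroxiredoxins whose cysteine has been overoxidised. Of this pair only sulfiredoxin passed the test. Txnrd1 (chromosome 10, 82859206 to 82897724, plus strand) was at 19.5 and 25.7 FPKM in JIB-04 hearts, at 24.1, 24.8 and 24.2 FPKM in transgenic vehicle hearts and at 18.8, 20.8, 26.7 and 23.2 FPKM in wild type hearts. Its groups overlapped fully, and the transgene difference was 0.09 ± 0.10 log2 (95% interval -0.13 to 0.31, adjusted p = 0.50). Without transgenic vehicle heart 1 the sign of that difference turned.

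Srxn1 (chromosome 2, 152105516 to 152111376, plus strand), the gene with the pair of TGAGTCA matches, was at 20.2 and 21.2 FPKM in JIB-04 hearts. Transgenic vehicle hearts had 28.9, 29.2 and 20.7 FPKM, and wild type hearts had 7.77, 9.51, 13.3 and 11.0 FPKM. Every transgenic heart was above every wild type heart, and transgenic vehicle heart 3 lay between both JIB-04 hearts. Transgenic vehicle hearts averaged 26.3 ± 4.84 FPKM (SD, n = 3) and wild type hearts 10.4 ± 2.33 FPKM (SD, n = 4). The difference was 1.24 ± 0.17 log2 (95% interval 0.84 to 1.64, adjusted p = 0.0012), the largest of the 9 genes, and 97.2% of all tested genes had a lower fold change. It was 1.42 (adjusted p = 0.00028) without transgenic vehicle heart 3.

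Nqo1 and Cbr3 encode cytosolic enzymes that reduce quinones and carbonyl compounds. Nqo1 (chromosome 8, 107388225 to 107403206, minus strand), NAD(P)H quinone dehydrogenase, had the highest FPKM of the 9 genes in every transgenic heart. It was at 70.7 and 54.2 FPKM in JIB-04 hearts, at 58.3, 63.7 and 85.2 FPKM in transgenic vehicle hearts and at 39.1, 39.6, 44.9 and 36.9 FPKM in wild type hearts. The lowest transgenic heart, JIB-04 heart 2, was above the highest wild type heart, and the highest of all was transgenic vehicle heart 3. Transgenic vehicle hearts averaged 69.1 ± 14.2 FPKM (SD, n = 3) and wild type hearts 40.1 ± 3.39 FPKM (SD, n = 4). The difference was 0.75 ± 0.15 log2 (95% interval 0.40 to 1.10, adjusted p = 0.0065), and 0.60 (adjusted p = 0.0079) without transgenic vehicle heart 3.

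Cbr3 (chromosome 16, 93683215 to 93690990, plus strand), carbonyl reductase 3, was the lowest of the 9 genes. It was at 2.53 and 2.10 FPKM in JIB-04 hearts, at 3.83, 2.60 and 3.59 FPKM in transgenic vehicle hearts and at 2.27, 1.75, 2.49 and 2.31 FPKM in wild type hearts. Transgenic vehicle hearts lay above wild type hearts without overlap, by a small margin between transgenic vehicle heart 2 and wild type heart 3. The difference was 0.44 ± 0.14 log2 (95% interval 0.12 to 0.76, adjusted p = 0.040). It did not pass without transgenic vehicle heart 1 (0.32, adjusted p = 0.21) or heart 3 (0.39, adjusted p = 0.089). Nor did it pass without either JIB-04 heart (adjusted p = 0.062 each) or without wild type heart 1, 2 or 4 (adjusted p = 0.073 to 0.074).

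Hmox1 (chromosome 8, 75093591 to 75100596, plus strand) encodes haem oxygenase 1, which splits haem into biliverdin, carbon monoxide and iron. It was at 4.98 and 6.68 FPKM in JIB-04 hearts, at 11.1, 6.75 and 9.11 FPKM in transgenic vehicle hearts and at 4.73, 4.82, 7.56 and 4.31 FPKM in wild type hearts. Wild type heart 3 was above transgenic vehicle heart 2, so these groups overlapped. The difference of transgenic vehicle against wild type was 0.65 ± 0.21 log2 (95% interval 0.16 to 1.14, adjusted p = 0.045). It was 0.37 (adjusted p = 0.26) without transgenic vehicle heart 1 and 0.64 (adjusted p = 0.081) without transgenic vehicle heart 3. The call was also lost without either JIB-04 heart (adjusted p = 0.055 each) and without wild type heart 1, 2 or 4 (adjusted p = 0.090 to 0.13).

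**Figure D2:**
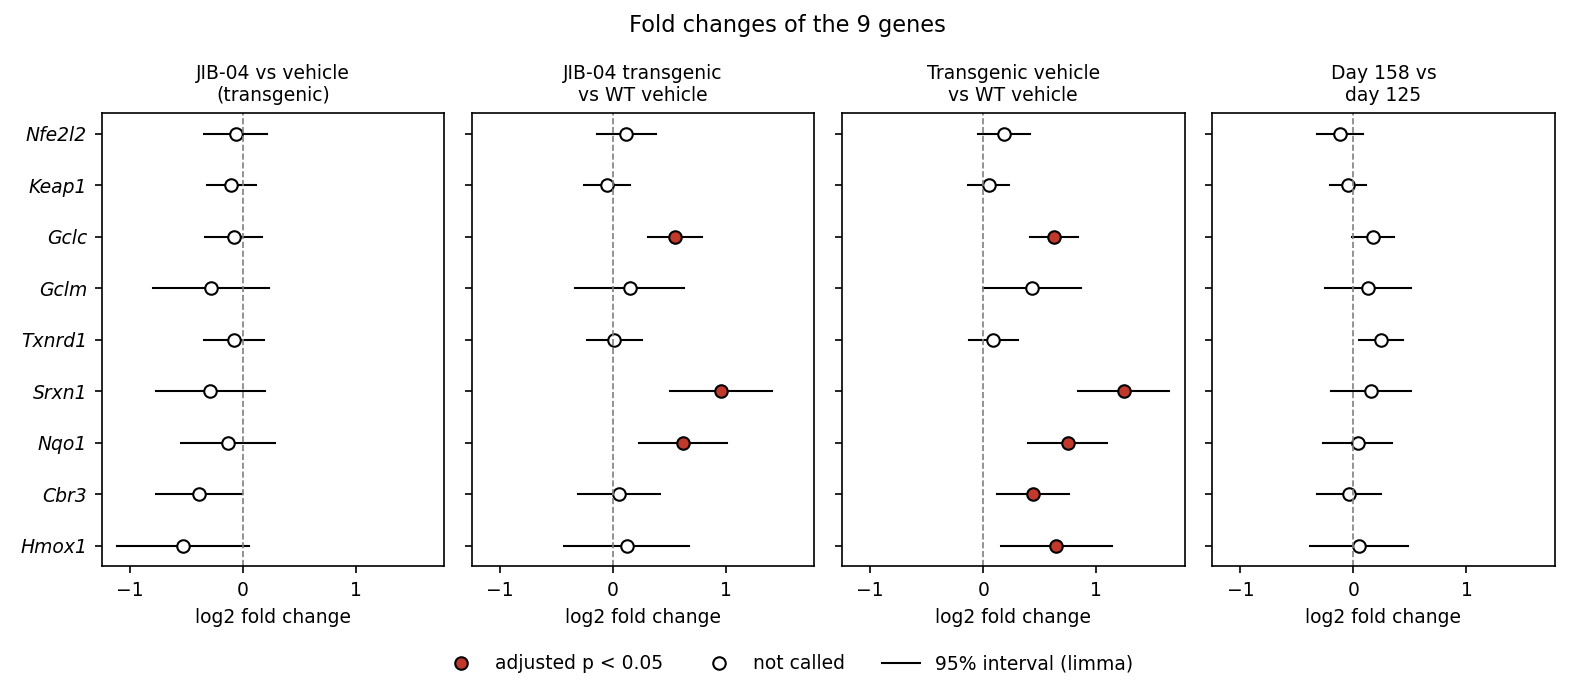
Log2 fold change (x axis) with the 95% limma interval for each of the 9 genes (rows), in 4 comparisons (panels). Filled points passed the adjusted p threshold of 0.05, which held for 5 genes in transgenic vehicle against wild type, for 3 genes in JIB-04 transgenic against wild type, and for no gene in JIB-04 against vehicle or day 158 against day 125.

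Across 24 other settings, including hearts left out in turn, Srxn1, Nqo1 and Gclc were higher in transgenic vehicle hearts in all 24, and passed the threshold in 23. The exception was the fit of day 158 hearts alone, with 0.97 for Srxn1 (adjusted p = 0.054), 0.84 for Nqo1 (adjusted p = 0.061) and 0.54 for Gclc (adjusted p = 0.088). Hmox1 passed in 8 of 24 settings. Cbr3 passed in 9 of the 23 in which it could be fitted, since it did not reach the filter of 5 FPKM. Without transgenic vehicle heart 3 and JIB-04 heart 2 together, Srxn1 differed by 1.42, Nqo1 by 0.60 and Gclc by 0.59, and Cbr3 and Hmox1 did not pass (adjusted p = 0.11 and 0.095).

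**Figure D3:**
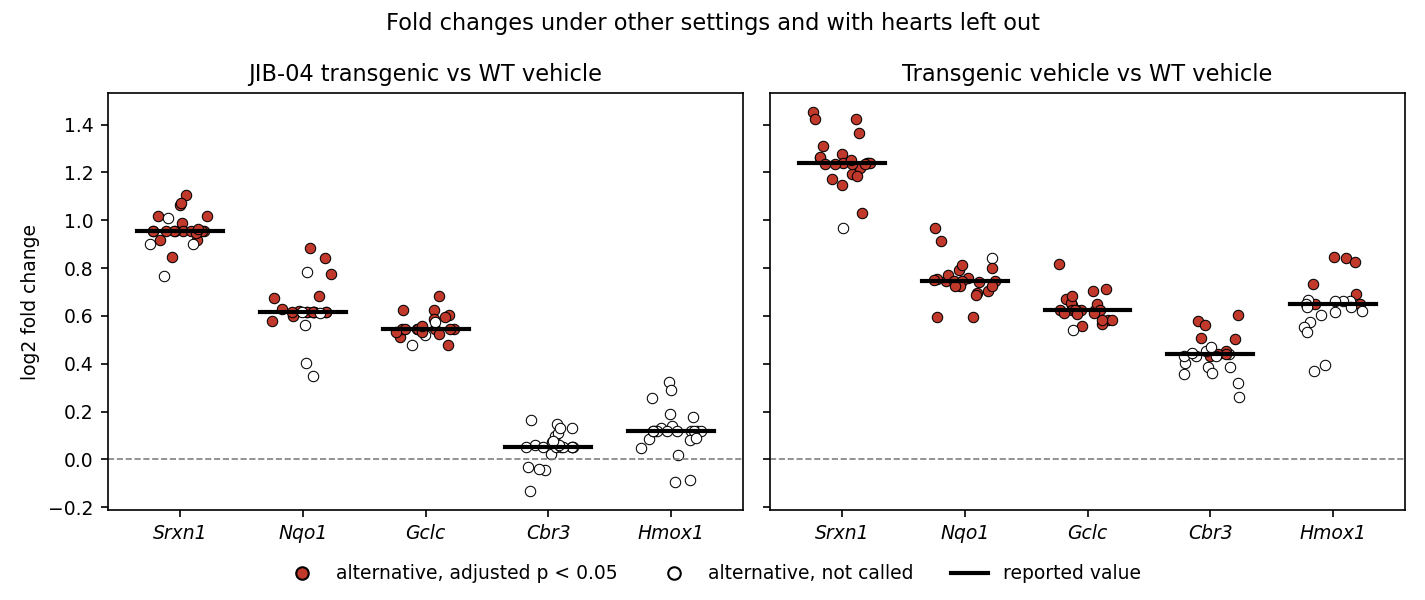
Log2 fold changes (y axis) of the 5 genes that passed in transgenic vehicle against wild type, under each other setting and with hearts left out (points), for JIB-04 transgenic against wild type and for transgenic vehicle against wild type (panels). Filled points passed the adjusted p threshold, and lines mark the reported values, such as 1.24 for Srxn1 in transgenic vehicle against wild type.

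Markers of several cell types moved with the transgene, and their part in the differences was not tested. Their counts stand beside the 20.3% of all tested genes that were higher and the 15.7% that were lower in this comparison. Fibroblast markers summed to 712 to 717 FPKM in JIB-04 hearts, 641 to 677 FPKM in transgenic vehicle hearts and 291 to 369 FPKM in wild type hearts, and 4 of 8 were higher in transgenic vehicle hearts. Cardiomyocyte markers summed to 11270 to 12770 FPKM, 11939 to 13323 FPKM and 15451 to 18063 FPKM in the same 3 groups, with 1 of 8 higher and 4 lower. Endothelial markers had 1 of 8 higher and 5 lower, and smooth muscle and pericyte markers 1 of 7 higher and 4 lower. Hmox1 is abundant in macrophages that clear red cells. Macrophage markers summed to 231 to 264 FPKM in JIB-04 hearts, 226 to 307 FPKM in transgenic vehicle hearts and 205 to 273 FPKM in wild type hearts, and 0 of 12 tested passed. Erythroid markers, which follow blood in the tissue, summed to 7185 to 10970 FPKM, 5290 to 8916 FPKM and 3132 to 7472 FPKM in the same 3 groups, and 0 of 5 tested passed between transgenic vehicle and wild type hearts.

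The second comparison asked what JIB-04 did in transgenic hearts. None of the 9 genes passed the test, where 0.00741% of all tested genes (1 of 13487) passed. Every one of the 9 fold changes was below 0, and the share of all genes below 0 was not counted. The same transgenic vehicle hearts enter the comparison with wild type, where all 9 were above 0. Nfe2l2, Txnrd1 and Nqo1 turned above 0 with some single hearts left out. The median of the 9 genes was -0.13, against -0.01 for all genes, and each adjusted p was 0.987. Before adjustment, Cbr3 alone among them had a p under 0.05, as 444 of all genes did. With 2 JIB-04 hearts the intervals are wide, and they bound the size of an effect rather than showing that there was none.

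Hmox1 had the largest difference between JIB-04 and vehicle over all hearts, -0.53 ± 0.25 log2 (95% interval -1.11 to 0.06). It was -0.25 without transgenic vehicle heart 1, -0.34 without JIB-04 heart 1 and -0.75 to -0.51 with any other heart left out. Both JIB-04 hearts, at 4.98 and 6.68 FPKM, lay below all transgenic vehicle hearts, the nearest of which was at 6.75 FPKM. For Cbr3 the difference was -0.39 ± 0.17 log2 (95% interval -0.77 to -0.0047), again with no overlap, and -0.51 to -0.27 with single hearts left out. Gclm, at -0.28 ± 0.22 log2 (95% interval -0.80 to 0.23, and -0.40 to -0.15 with single hearts left out), had no overlap either. Separation of groups this small was not counted over all genes, so nothing is read from it. Group means of JIB-04 and vehicle hearts were 5.83 ± 1.21 and 8.99 ± 2.18 FPKM for Hmox1, 2.31 ± 0.30 and 3.34 ± 0.65 FPKM for Cbr3, and 15.3 ± 0.46 and 19.2 ± 2.87 FPKM for Gclm (SD, n = 2 and n = 3).

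For Srxn1 the difference was -0.29 ± 0.21 log2 (95% interval -0.77 to 0.19), and JIB-04 heart 2 lay above transgenic vehicle heart 3. It was -0.47 without transgenic vehicle heart 3 and -0.076 without transgenic vehicle heart 1. For Nqo1 it was -0.13 ± 0.18 log2 (95% interval -0.55 to 0.28), and 0.02 without transgenic vehicle heart 3. The intervals of Gclc (-0.33 to 0.17), Txnrd1 (-0.34 to 0.18), Nfe2l2 (-0.34 to 0.21) and Keap1 (-0.32 to 0.11) lay on both sides of 0.

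Set against wild type hearts, JIB-04 transgenic hearts had 3 of the 9 genes higher and 0 lower, where 32.3% of all tested genes passed, 17.4% higher and 14.8% lower. The 3 were Srxn1 (0.95 ± 0.20 log2, 95% interval 0.50 to 1.41, adjusted p = 0.0077), Nqo1 (0.62 ± 0.17, 0.23 to 1.01, adjusted p = 0.026) and Gclc (0.55 ± 0.10, 0.31 to 0.78, adjusted p = 0.0053). Hmox1 differed from wild type by 0.12 log2 (95% interval -0.43 to 0.67, adjusted p = 0.73) and Cbr3 by 0.05 log2 (95% interval -0.31 to 0.41, adjusted p = 0.83). The median of the 9 genes was 0.12, against 0.04 for all genes. These calls rested on few hearts. Without JIB-04 heart 1 they had adjusted p of 0.076 for Srxn1, 0.28 for Nqo1 (0.35 log2) and 0.060 for Gclc. Without JIB-04 heart 2, Nqo1 passed (adjusted p = 0.032), and Srxn1 (0.064) and Gclc (0.053) did not. Nqo1 also did not pass without wild type heart 1, 2 or 4 (adjusted p = 0.058, 0.055 and 0.065).

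The 3 comparisons share hearts. JIB-04 and vehicle transgenic hearts were both set against the same 4 wild type hearts, and the transgenic vehicle hearts enter both the transgene and the JIB-04 comparison. A gene that passed in transgenic vehicle hearts and not in JIB-04 hearts, such as Hmox1 or Cbr3, is not thereby shown to differ between them, and the direct test of that difference is the one given above, with an adjusted p of 0.987.

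The labels also allow a comparison of ages, day 158 (5 hearts) against day 125 (4 hearts), with the group in the model. The numbers in the sample titles fall in separate ranges for the ages. Age therefore cannot be told apart from other differences between these sets of hearts, here and in the differences between ages below. None of the 9 genes passed, where 0.378% of all tested genes (51) passed and 2534 had an unadjusted p under 0.05. Txnrd1 had the largest difference, 0.24 ± 0.08 log2 (95% interval 0.05 to 0.44, unadjusted p = 0.020, adjusted p = 0.18). In JIB-04 hearts it was at 25.7 FPKM at day 158 and 19.5 FPKM at day 125, and in wild type hearts at 26.7 and 23.2 FPKM at day 158 and 18.8 and 20.8 FPKM at day 125. Transgenic vehicle hearts, at 24.8 and 24.2 FPKM against 24.1 FPKM, lay close together at both ages. Gclc differed by 0.18 ± 0.08 log2 (95% interval -0.01 to 0.36, adjusted p = 0.28), and the other 7 genes by -0.12 to 0.15 log2.

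The effect of the transgene was also taken at each age. This used a fit with a mean for each group at each day, which shares 1 estimate of the spread over all hearts. At day 158, transgenic vehicle hearts had Srxn1 higher by 0.97 log2 (adjusted p = 0.028), Nqo1 by 0.84 (adjusted p = 0.027) and Gclc by 0.54 (adjusted p = 0.042). Of all 13487 genes, 2252 passed in that contrast. In the fit of day 158 hearts alone, given above, Srxn1, Nqo1 and Gclc did not pass, so these calls depend on the fit. At day 125, 1 transgenic vehicle heart stood against 2 wild type hearts, so the differences are given as values with no test, 1.64 for Srxn1, 0.56 for Nqo1 and 0.75 for Gclc. Hmox1 differed by 0.39 at day 158 (adjusted p = 0.33) and by 1.07 at day 125. The change of the transgene effect between the ages was tested directly, with the lone transgenic vehicle heart of day 125 assumed to vary like the others, and none of the 9 genes passed (adjusted p = 0.999 each, where 0.00741% of all genes passed and 401 had an unadjusted p under 0.05). The largest such changes were -0.68 for Hmox1 (95% interval -1.66 to 0.31) and -0.67 for Srxn1 (95% interval -1.45 to 0.10).

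JIB-04 against vehicle had 1 JIB-04 heart at each age. Nqo1 was lower with JIB-04 at day 158 (54.2 FPKM against 63.7 and 85.2 FPKM) and higher at day 125 (70.7 FPKM against 58.3 FPKM). Hmox1 was lower at both ages, 6.68 FPKM against 6.75 and 9.11 FPKM at day 158 and 4.98 FPKM against 11.1 FPKM at day 125. The difference of the JIB-04 effect between ages was -0.71 for Nqo1 (95% interval -1.49 to 0.07) and 0.81 for Hmox1 (95% interval -0.35 to 1.98). None of the 9 genes passed, as 0 of all 13487 genes did, with 405 at an unadjusted p under 0.05.

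The rest of the redox system was read from 7 gene lists, described by counts beside the 9 genes. In transgenic vehicle against wild type hearts, most lists held genes that rose and genes that fell. The share of tested genes that passed was 40% for the regulators, 48.7% for glutathione genes, 54.2% for thioredoxin genes, 58.8% for NADPH supply, 56% for quinone and carbonyl enzymes, 36.4% for haem genes and 41.2% for dismutases and oxidant sources, beside 36.0% of all genes. The regulators, the haem genes and the last list were thus near the share of all genes, and nothing is read from their counts. The number of genes that passed in a list, and the balance of their directions, also depended on scaling, so nothing is read from the other shares either. With equal summed FPKM, which moved the median of all genes to 0.23 from 0.05, 4504 genes were higher and 1006 lower of 13534 tested. As reported, these counts were 2739 and 2123 of 13487. With median of ratios scaling, 2364 were higher and 2518 lower. The directions of the genes named from the lists held in every setting run. In day 158 hearts alone Maff, Trim21, Sqstm1, Glrx, Msrb2, Msra, Nnt, Cyp1b1, Blvra, Blvrb, Slco2b1, Nox4 and Maob did not pass (adjusted p = 0.051 to 0.16). No gene of any list passed in JIB-04 against vehicle or in day 158 against day 125.

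**Figure D4:**
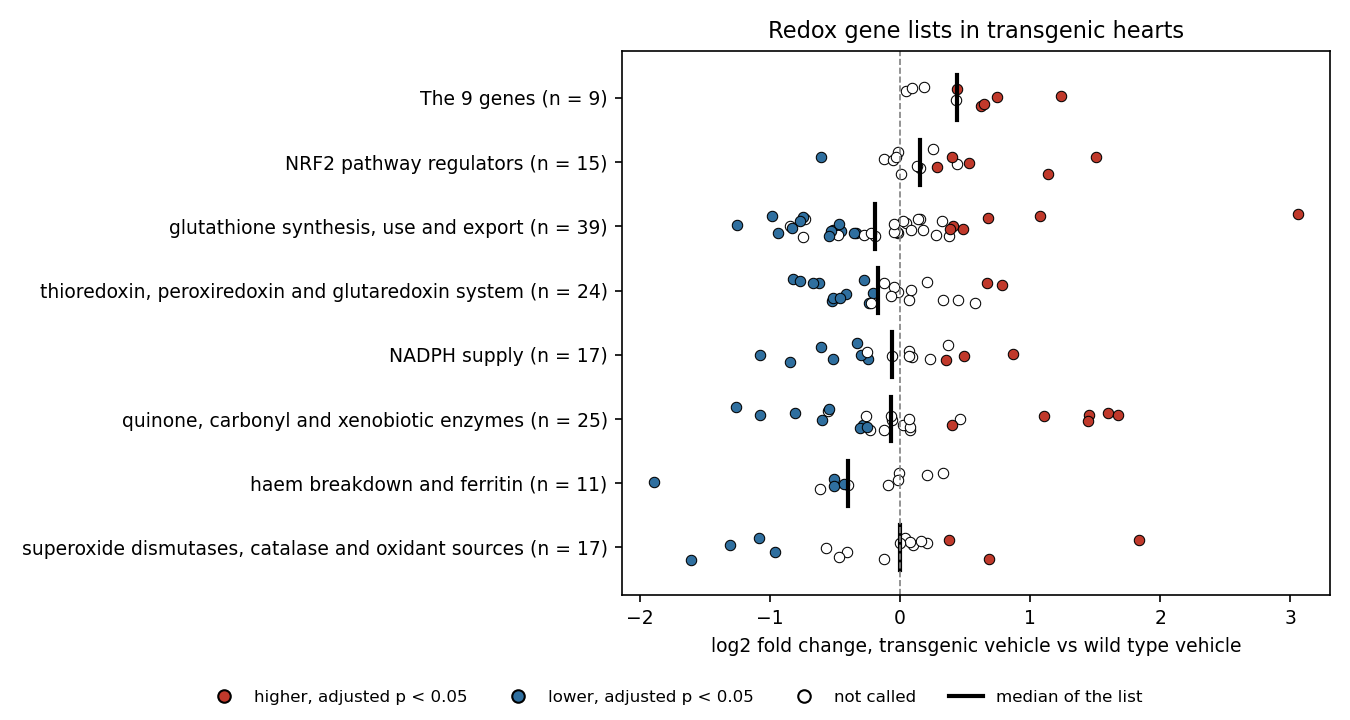
Log2 fold change of transgenic vehicle against wild type vehicle (x axis) for each tested gene (points) of the 9 genes and of the 7 redox lists (rows, with the number tested). Filled points passed the adjusted p threshold and bars mark medians, 0.44 for the 9 genes and -0.40 to 0.16 for the lists.

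Regulators of NRF2 included the partners of the factor. Of 15 tested, 5 were higher and 1 lower, with a median of 0.16. Mafk, a small MAF protein that pairs with NRF2 on DNA, was at 54.6 ± 1.66 FPKM in JIB-04 hearts, 54.1 ± 7.62 FPKM in transgenic vehicle hearts and 18.6 ± 2.91 FPKM in wild type hearts (SD, n = 2, 3 and 4, as for the group means that follow). The difference was 1.51 log2 for transgenic vehicle against wild type (limma adjusted p = 0.00015). Maff, another small MAF protein, rose by 1.14 log2 (adjusted p = 0.024) to 11.2 ± 6.53 FPKM in transgenic vehicle hearts, against 4.19 ± 1.03 FPKM in wild type hearts. Maff did not pass with no filter on low values, with the replicate block, or without wild type heart 3 or 4 (adjusted p = 0.081, 0.089, 0.068 and 0.077). Sqstm1, the autophagy receptor p62 that binds KEAP1, rose by 0.53 log2 (adjusted p = 0.017) to 353 ± 47.8 FPKM, against 245 ± 33.7 FPKM, but did not pass with no filter (adjusted p = 0.055). Trim21, a ubiquitin ligase, fell by 0.61 log2 (adjusted p = 0.0036). Exons of Mafk overlap Tmem184a and those of Sqstm1 overlap Mrnip on the opposite strand, so their reads cannot be told apart in these libraries. With equal summed FPKM 7 regulators were higher and 1 lower.

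Glutathione genes other than the ligase subunits were mostly lower among those that passed, 6 higher and 13 lower of 39 (median -0.19), but 10 higher and 7 lower with equal summed FPKM. Gpx3, the secreted glutathione peroxidase, was at 758 ± 4.46 FPKM in JIB-04 hearts, 857 ± 47.6 FPKM in transgenic vehicle hearts and 102 ± 15.5 FPKM in wild type hearts. Its difference of 3.06 ± 0.12 log2 for transgenic vehicle against wild type (adjusted p = 3.5e-06) was the largest of all listed redox genes. Gpx8, a peroxidase of the endoplasmic reticulum, rose by 1.08 log2 to 47.8 ± 8.33 FPKM, against 22.2 ± 2.07 FPKM in wild type hearts (adjusted p = 0.00037). Gstt1 and Gstk1, glutathione transferases of the theta and kappa classes, fell by 1.25 and 0.98 log2 (adjusted p = 0.00014 and 0.00013). Some transferase families on this list hold near-identical copies, so single members of those families are uncertain.

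Thioredoxin, peroxiredoxin and glutaredoxin genes, the partners of Txnrd1 and Srxn1, had 2 higher and 11 lower of 24 (median -0.17), but 5 higher and 2 lower with equal summed FPKM. Msrb3 and Msra, which reduce oxidised methionine in proteins, rose by 0.78 and 0.67 log2 (adjusted p = 0.00051 and 0.0012). Msrb2, the mitochondrial enzyme of that family, fell by 0.77 log2 (adjusted p = 0.0078), and Glrx, glutaredoxin 1, fell by 0.82 log2 (adjusted p = 0.0042). Msrb2 did not pass with equal summed FPKM (adjusted p = 0.053).

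NADPH, which glutathione reductase, thioredoxin reductase and NQO1 consume, is supplied by 17 tested genes, of which 3 were higher and 7 lower (median -0.06, and 5 higher and 3 lower with equal summed FPKM). Idh1, the cytosolic isocitrate dehydrogenase, was at 15.1 ± 0.14 FPKM in JIB-04 hearts, 15.1 ± 2.15 FPKM in transgenic vehicle hearts and 33.2 ± 0.33 FPKM in wild type hearts (-1.08 log2 for transgenic vehicle against wild type, adjusted p = 7.9e-05). Nadk2 and Nnt, the mitochondrial NAD kinase and transhydrogenase, fell by 0.85 and 0.61 log2 (adjusted p = 0.00034 and 0.0055). Mthfd2, a mitochondrial folate enzyme, rose by 0.87 log2 (adjusted p = 0.0052) to 3.44 ± 0.69 FPKM in transgenic vehicle hearts, against 1.39 ± 0.43 FPKM in wild type hearts.

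Quinone, carbonyl and xenobiotic enzymes, the class of Nqo1 and Cbr3, had 6 higher and 8 lower of 25 (median -0.07), and 8 higher and 4 lower with equal summed FPKM. Akr1b8, an aldo-keto reductase, rose by 1.46 log2 (adjusted p = 5.6e-05) to 7.67 to 9.95 FPKM in transgenic vehicle hearts, against 2.40 to 2.97 FPKM in wild type hearts. Aldh1a1, an aldehyde dehydrogenase, rose by 1.45 log2 (adjusted p = 0.00048). Cyp1b1, a cytochrome P450, rose by 1.60 log2 (adjusted p = 0.017) but did not pass without transgenic vehicle heart 1 (adjusted p = 0.052), without wild type heart 4 (0.051) or with no filter (0.065). At 0.64 to 0.84 FPKM in wild type hearts, it met the filter of 1 FPKM only through transgenic hearts, which limits its test.

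Haem breakdown and ferritin genes, the setting of Hmox1, had 0 higher and 4 lower of 11 (median -0.40), and 2 higher and 1 lower with equal summed FPKM. Slc40a1, the iron exporter ferroportin, was at 1.21 ± 0.12 FPKM in JIB-04 hearts, 1.41 ± 0.61 FPKM in transgenic vehicle hearts and 7.91 ± 1.26 FPKM in wild type hearts (-1.89 log2 for transgenic vehicle against wild type, adjusted p = 0.00018). Blvra and Blvrb, the biliverdin reductases that act after haem oxygenase, fell by 0.51 and 0.50 log2 (adjusted p = 0.0097 and 0.0036). Slco2b1, an organic anion transporter, fell by 0.43 log2 (adjusted p = 0.022) and overlaps 2 antisense genes. Blvra and Slco2b1 (adjusted p = 0.14 each) and Blvrb (adjusted p = 0.05) did not pass with equal summed FPKM. Blvra and Slco2b1 were also lost without transgenic vehicle heart 1 (adjusted p = 0.058 and 0.088) and with the replicate block (0.093 and 0.066). Slco2b1 was lost as well with no filter, without transgenic vehicle heart 2 and without wild type heart 3 (0.058, 0.065 and 0.068).

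Superoxide dismutases, catalase and sources of oxidants had 3 higher and 4 lower of 17 (median 0.00, and 4 higher and 4 lower of 18 with equal summed FPKM). Nox4, an NADPH oxidase that makes hydrogen peroxide, was at 3.55 ± 0.79 FPKM in JIB-04 hearts, 4.14 ± 3.39 FPKM in transgenic vehicle hearts and 0.23 ± 0.12 FPKM in wild type hearts (1.84 log2 for transgenic vehicle against wild type, adjusted p = 0.0050). Wild type hearts, at 0.13 to 0.39 FPKM, lay under the filter of 1 FPKM. Nox4 met that filter only through the transgenic hearts where it is high, which limits its test. Nos2, the inducible nitric oxide synthase, and Maob, a monoamine oxidase of the mitochondrial outer membrane, fell by 1.31 and 1.08 log2 (adjusted p = 0.00074 and 0.0016). Nos2 lay under 1 FPKM in every transgenic heart and met the filter only through wild type hearts, so its test has the same limit. Ucp3, a mitochondrial carrier, fell by 1.61 log2 (adjusted p = 0.00030). It was at 11.2 ± 0.52 FPKM in JIB-04 hearts (n = 2), 4.20 ± 0.77 FPKM in transgenic vehicle hearts (n = 3) and 14.7 ± 3.76 FPKM in wild type hearts (SD, n = 4). For JIB-04 against vehicle the difference of Ucp3 was 1.28 ± 0.20 log2 (95% interval 0.82 to 1.75), without overlap of hearts and with an adjusted p of 0.42.

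For each of the 9 genes the most alike gene over the 9 hearts was the one with the smallest root mean square difference of centred log2(FPKM + 1). For Srxn1 these were Fbxo40 (0.14) and Fbrsl1 (0.17), where Srxn1 itself had an SD of 0.65 over the hearts. For Nqo1 they were Map3k14 (0.09) and Maoa (0.10) beside an SD of 0.42. For Gclc they were Pde4dip (0.07) and Ddit3 (0.07) beside an SD of 0.35, and for Hmox1 Foxo3 (0.17) and Figf (0.18) beside an SD of 0.41. Gclm was closest to Trmt44 (0.13) and Gm9761 (0.14), Cbr3 to Fuca1 (0.11) and Taf3 (0.12), and Txnrd1 to Asb1 (0.05) and Rnf6 (0.07). Nfe2l2 was closest to Fchsd1 and Taf1 (0.07 each) and Keap1 to Irf2bp1 (0.03) and Lrrc47 (0.04), both beside small SDs of their own (0.15 and 0.08). None of the 9 genes was allowed as a partner of another. How close the nearest of 13487 tested genes comes by chance over 9 hearts was not counted. The pairs thus describe likeness only, and shared regulation was not tested.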

How the data were processed

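RNA of 9 hearts was extracted with Trizol and sequenced from poly(A) libraries that do not keep strand, per the labels' protocols. STAR 2.7.1a, Picard, GATK 4.1.2, Cufflinks 2.2.1 and the GRCm38 build are named in the submitters' processing notes, without the role of each. Per the file headers, the authors deposited log2 FPKM per gene. The sources used here do not state which constant preceded the logarithm. It was taken to be 1, because every file had a minimum of exactly 0. Reads per heart are unknown, so no counting interval is given.

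The fit used limma 3.58.1 in R 4.3.3 (lmFit, eBayes with trend) on log2(FPKM + 1) of the 13487 genes that reached 1 FPKM in 2 or more hearts, over the 9 hearts together. Group means and the day of collection were its terms, with 5 residual and 3.07 prior degrees of freedom. P-values are two-sided and adjusted by Benjamini-Hochberg over all tested genes, with a threshold of 0.05. Effects at each day, and differences of an effect between days, used a mean for each group at each day (6 in all). The fit was tested on simulated data. The members and lists were chosen with earlier results of these data known. Named are the 9 genes, up to 4 genes that passed in each list by size of change in transgenic vehicle against wild type, and the 2 most alike genes per member. A gene that this rule selects from a list is not reported here. Emr1 stands for Adgre1, Sepw1 for Selenow and Amer1 for Wtx. Flvcr1 and Cyba were not analysed here. Positions count from 1. Exon overlaps come from GENCODE M21 and promoter sequences from RefSeq. The alternatives were pseudocounts of 0.1 and 0.5, no filter or 5 FPKM, 4 scalings, dropping the day term, a block for the replicate number, other variance settings, only the compared groups, day 158 hearts alone and each heart left out. In the submitters' text treatment lasted until day 158, but the hearts labelled day 125 were taken as labelled.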

Additional observations from a re-analysis of the deposited data

Results flagged for a closer look

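Hmox1 in wild type heart 3 stood apart from the other wild type hearts. It was at 7.56 FPKM there, against 4.73, 4.82 and 4.31 FPKM in wild type hearts 1, 2 and 4. The gap to the nearest heart was 0.843 of the range of the 4 hearts, above Dixon's 95% critical value for 4 values. Of the 9 genes tested this way in the wild type group, Hmox1 was the only one above that value, and chance alone gives about 1 such heart in 20 groups. The groups of 2 and 3 hearts were not tested in this way. Without wild type heart 3, Hmox1 differed by 0.84 log2 between transgenic vehicle and wild type hearts.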

How the results depend on the processing

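All numbers here are log2 fold changes unless they are counts of the 9 genes. Srxn1, Nqo1 and Gclc kept their direction in every setting of both comparisons with wild type. In transgenic vehicle against wild type, 5 of the 9 genes were higher as reported. That count was 3 with no filter on low values, with median of ratios or quantile scaling, with only the 2 compared groups, with the replicate number as a block and without both hearts that listed mt-Atp6, 0 in day 158 hearts alone, and 3 to 6 with single hearts left out. In JIB-04 transgenic against wild type, 3 genes were higher as reported, 1 with the replicate block, 0 in day 158 hearts alone, and 0 to 3 with single hearts left out. The cause of these changes was not tested, and some of these settings also had fewer hearts. Hearts of the same number in different groups had correlations of -0.19 to 0.43. Deviations from means of so few hearts mirror each other, and hearts of the same number often share a day. These correlations therefore cannot decide whether the numbers pair the hearts. With the block, 1385 of all genes were higher and 1073 lower in transgenic vehicle against wild type, against 2739 and 2123 without it.

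Sign changes concerned values that did not pass the test as reported. In transgenic vehicle against wild type, Keap1 was at -0.00205 with median of ratios and -0.017 with quantile scaling, and Txnrd1 at -0.023 in day 158 hearts alone and -0.033 to 0.15 with hearts left out. In JIB-04 against vehicle, Txnrd1 was at 0.065 in day 158 hearts alone and Nqo1 at 0.25 without both hearts that listed mt-Atp6. With hearts left out, Nfe2l2 ranged from -0.19 to 0.047, Txnrd1 from -0.17 to 0.045 and Nqo1 from -0.38 to 0.16. In JIB-04 transgenic against wild type, Keap1 was at 0.10 with equal summed FPKM and 0.0093 with equal totals without mitochondrial and the 20 highest genes. Txnrd1 was at -0.026 with median of ratios and -0.014 with quantile scaling, and Cbr3 at -0.034 with quantile scaling. Nfe2l2 was at -0.008 with the replicate block, and in day 158 hearts alone Gclm was at -0.018 and Cbr3 at -0.13. Without both hearts that listed mt-Atp6, Nfe2l2 was at -0.018, Txnrd1 at -0.065 and Hmox1 at -0.094. With hearts left out, Nfe2l2 ranged from -0.0025 to 0.24, Txnrd1 from -0.078 to 0.10, Cbr3 from -0.045 to 0.15 and Hmox1 from -0.085 to 0.32.

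In day 158 against day 125, equal summed FPKM gave Nqo1 at -0.035 and Hmox1 at -0.019. Equal totals without mitochondrial and the 20 highest genes gave Keap1 at 0.056 and Cbr3 at 0.036. The replicate block gave Nfe2l2 at 0.05, Keap1 at 0.028 and Nqo1 at -0.23, and Hmox1 was at -0.065 without both hearts that listed mt-Atp6. With hearts left out, Gclm ranged from -0.018 to 0.23, Nqo1 from -0.09 to 0.16, Cbr3 from -0.12 to 0.058 and Hmox1 from -0.11 to 0.27. For the difference of the JIB-04 effect between days, Keap1 was at 0.027, 0.079, 0.095 and 0.15 with equal summed FPKM, median of ratios, quantile scaling and equal totals without mitochondrial and the 20 highest genes, and Gclm at 0.051 with the last of these. Cbr3 could not be fitted under the filter of 5 FPKM. Precision is limited by the number of hearts, 2 to 4 a group, and by an unknown read depth, which bears most on Cbr3 at 1.75 to 3.83 FPKM.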
